A study of Mus musculus with 2 samples.

Results

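The spliceosomal small nuclear RNAs (snRNAs) described here are the rows that the deposited table classes as snRNA, 1 transcript for each Ensembl gene. There were 1382 such copies among 45578 genes. Both libraries were made from control mouse brain at postnatal day 5, from the Taiwanese model of spinal muscular atrophy kept on FVB, with the genotype Smn+/-; SMN2tg/0. The mice thus lacked 1 of the mouse Smn alleles and carried the human SMN2 transgene. Frozen brain was powdered, lysed and cleared by centrifugation, the lysate was digested with nuclease, and RiboLace beads, which hold a puromycin analogue, captured ribosomes. RNA fragments of 25 to 35 nucleotides were then sequenced. The series has 2 biological replicates of 1 group, so the comparison open to it is between the libraries, and a p-value below compares these libraries and no condition. The labels do not name separate animals, and the series' design text speaks of a single mouse and of duplicates, so an SD over 2 libraries measures the spread between these libraries, which may be technical.

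The snRNAs are the RNA cores of the spliceosome. U1 pairs with the 5' splice site, U2 with the branch point, and U4, U5 and U6 join as the tri-snRNP, while U11 and U12 take the places of U1 and U2 in the minor spliceosome. U7 is not a splicing RNA: it directs the 3' end cleavage of replication-dependent histone messages. All of these but U6 are transcribed by RNA polymerase II and receive a ring of Sm proteins (a related Sm and Lsm10/Lsm11 ring on U7) in the cytoplasm, a step carried out by the SMN complex. U6 is made by RNA polymerase III and carries the nuclear Lsm ring. Mouse snRNAs come from multigene families with many scattered, often truncated copies.

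Of the 1382 copies, 11 had a gene symbol that starts with Rnu: 4 of U1 (Rnu1a1, Rnu1b1, Rnu1b2, Rnu1b6), Rnu2-10, Rnu5g, Rnu6, Rnu6-ps2, Rnu7, Rnu11 and Rnu12. The other 1371 carried only a predicted-gene symbol. They were therefore grouped by transcript length against the named genes: 58 copies had the U1 lengths of 164 to 166 nucleotides, 14 the U2 length of 191, 13 the U5 length of 116, 408 the U6 length of 107, 22 the U7 length of 62, 5 the U11 length of 134 and 7 the U12 length of 151. The remaining 855 had other lengths between 54 and 200. No copy carried a U4 symbol, so no U4 group was formed, and any U4 copies lie unrecognised among these groups. An equal length does not prove that a copy belongs to the family, so the groups are called U1-length, U2-length and so on.

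Full sequences could be read for 2 models, because they lie inside start-site windows of neighbouring genes in RefSeq (GRCm38.p6). They are shown because they contrast the most counted family with one that was almost uncounted. The first is a 166-nucleotide U1 model, LOC115489800 in RefSeq, at chr3:96450446-96450611 on the plus strand. It lies inside a start-site window of the RefSeq gene Gm26232 and is labelled below by that window. The table gives the symbol Gm26232 to a 166-nucleotide snRNA copy with 101 counts in replicate 1 and 112 in replicate 2. That copy was not placed by symbol, so whether it is the printed model was not settled. The second is Rnu7 (chr6:124741225-124741286, minus strand), upstream of Grcc10. Each is printed on the strand of its window. Capitals mark ACTTACCTG, the stretch by which U1 pairs with the 5' splice site, at position 3 of the U1 model, and AATTTGT, the start of the Sm protein site, at position 126 of U1 and position 21 of U7.
U1 model in Gm26232: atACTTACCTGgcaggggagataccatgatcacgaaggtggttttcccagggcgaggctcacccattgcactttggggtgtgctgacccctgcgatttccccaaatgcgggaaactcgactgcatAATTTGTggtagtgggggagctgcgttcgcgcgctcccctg
Rnu7: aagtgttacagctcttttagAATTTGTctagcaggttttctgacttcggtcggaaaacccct

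On either strand, AATTTGT occurred in 2.12% and ACTTACCTG in 0.131% of 32851 RefSeq start-site regions of 166 bases. In regions of 62 bases these shares were 0.773% and 0.0335%. A match is a description of these letters and not evidence of a working site.

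Across all copies, 467 had at least 1 count in either library and 915 had none. Replicate 1 held 343552 gene counts and replicate 2 held 120282. A count was seen for 400 copies in replicate 1 and for 412 in the shallower replicate 2. Over all genes it was seen for 19570 and 15877. The snRNA rows summed to 6469 counts in replicate 1, or 1.88% of gene counts (95% Wilson interval 1.84% to 1.93%), and to 6832 in replicate 2, or 5.68% (5.55% to 5.81%). Each interval covers counting error only. A copy with 0 counts can hold up to 0.000873% of the gene counts in replicate 1 and 0.00249% in replicate 2. Fewer cells with an RNA and less of it per cell cannot be told apart in bulk tissue. The mean share of gene counts was 3.78% ± 2.68 (SD, n = 2), and the share in replicate 2 was 3.02 times that in replicate 1. Abundances below are CPM, that is counts per 1000000 counts of the library size after TMM scaling. A single count equals 2.71 CPM in the first library and 8.93 CPM in the second. Log2 ratios set replicate 2 against replicate 1 after adding 1 CPM to both.

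The families differed in how many of their copies were counted and in how many of these had a count pair of their own. All 14 U2-length copies and all 5 U11-length copies had a count. Of the U1-length copies 40 of 58 did (69.0%), of the U5-length copies 8 of 13, of the U12-length copies 4 of 7 and of the U6-length copies 238 of 408 (58.3%). Of the 22 U7-length copies 1 did, which was Rnu7 itself. Of the copies of other lengths 157 of 855 did (18.4%).

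The sources used here do not say how fragments matching several copies were counted. Equal pairs of counts in the 2 libraries were therefore treated as shared fragments. The 467 counted copies gave 235 distinct pairs within their length groups. Among the U1-length copies nearly every copy had its own pair (38 pairs for 40 copies), and the U2-length, U5-length, U11-length and U12-length copies had no pair in common. The 238 counted U6-length copies gave 97 pairs, the most frequent at 10 or more counts being 12 and 5 counts, held by 8 copies with RefSeq positions on 7 chromosomes. Equal pairs at low counts can also be ties, and ties are rarer at high counts. Distinct pairs therefore do not show that copies hold separate fragments, and the groups differ in count level. At 20 or more counts in sum, 28 distinct pairs were left for 44 U6-length copies.

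**Figure D1:**
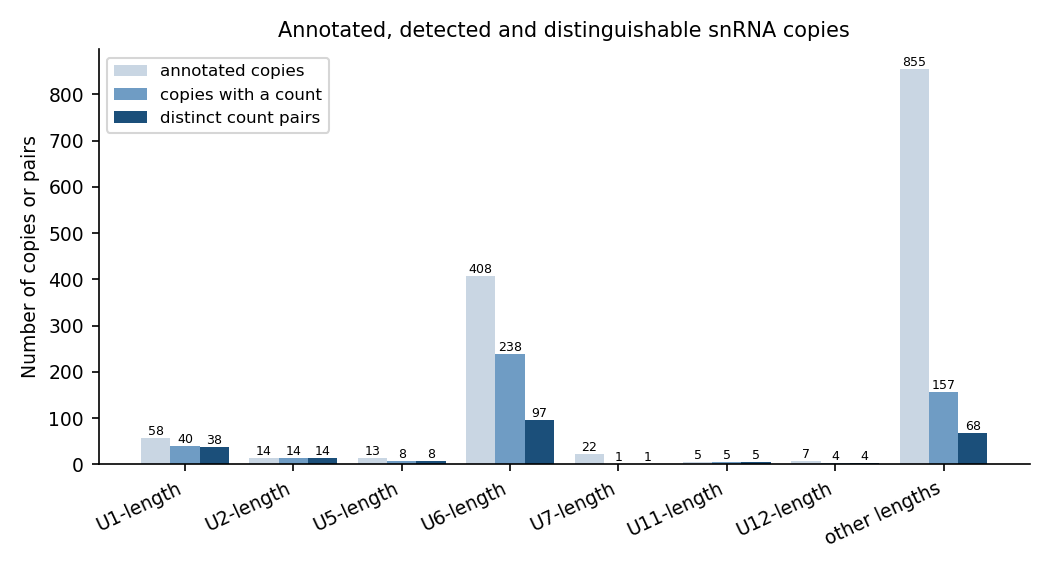
Bars give the number of annotated snRNA copies, of copies with at least 1 count in either library, and of distinct pairs of counts among them, for each length group. U6-length copies number 408 annotated, 238 counted and 97 distinct, whereas all 14 U2-length copies are counted and distinct.

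If shared fragments were counted for each copy, the fragments of a length group would lie between the count of its top copy (highest summed count) and the sum over its copies. For the U1-length copies the sum was 21.9 times the top copy in replicate 1 (Gm22317, 107 counts of 2346). For the U6-length copies it was 85.5 times (Gm26328, 22 counts of 1880). For U11 the bounds nearly met, at 1.13 times (Rnu11, 76 counts of 86). Levels of these groups are uncertain by such factors.

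Among the genes with an Rnu symbol, the U1 gene Rnu1a1 (ENSMUSG00000095969, chr11:87422867-87423030 in RefSeq, inside the span of Tex14) had 114 counts in replicate 1 and 128 in replicate 2. These are 309 and 1143 CPM, with a mean of 726 CPM ± 590 (SD, n = 2). Its log2 ratio was 1.88 (95% interval 1.51 to 2.26, counting error only), with an adjusted p of 6.95e-21 in the exact binomial test over all genes. Rnu1b6 (chr3:96460024-96460189) counted 82 and 112 fragments, with a log2 ratio of 2.17 (1.75 to 2.60). For Rnu1b1 (chr3:96359953-96360117) these were 68, 77 and 1.89 (1.41 to 2.39). For Rnu1b2 (chr3:96374021-96374185) they were 66, 75 and 1.90 (1.41 to 2.40). The ratio intervals of all 4 U1 genes overlapped, and each gene was higher in replicate 2 in CPM. U1b RNAs are known as the variant form that is prominent in embryonic tissue.

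Rnu2-10 (ENSMUSG00000065944, U2) reached 79 and 87 counts, or 214 and 777 CPM, at a log2 ratio of 1.85 (1.40 to 2.32). It lies on chromosome 11, where RefSeq gives it 187 nucleotides against 191 in the table. Rnu5g (U5, chr9:65201726-65201841) reached 68 and 114 counts at a log2 ratio of 2.46 (2.02 to 2.92, adjusted exact binomial p = 4.78e-27). In the minor spliceosome, Rnu11 (U11, ENSMUSG00000077323) reached 76 and 129 counts at a log2 ratio of 2.48 (2.06 to 2.91, adjusted exact binomial p = 6.90e-31). Its RefSeq model on chromosome 4 has 108 nucleotides against 134. Rnu12 (U12, chr15:83149645-83149794 in RefSeq) reached 32 and 42 counts at a log2 ratio of 2.10 (1.41 to 2.82, adjusted exact binomial p = 3.79e-08). The intervals of these 4 genes overlapped.

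Rnu6 (U6, chr17:13432033-13432139) had 7 counts in replicate 1 and 4 in replicate 2. That is 19.0 and 35.7 CPM, and the interval of its log2 ratio (0.88, -1.31 to 2.89) includes 0. Of the 408 U6-length copies 138 had more counts than Rnu6, none of them a named gene. Rnu6-ps2, a U6 pseudogene by its symbol, had 2 counts and 1 count (log2 ratio 0.63, interval -5.16 to 4.98). Rnu7 had 3 and 2 counts (log2 ratio 1.05, interval -2.45 to 4.26). These 3 genes had too few counts for the test.

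Per 100 nucleotides of transcript, the order in replicate 1 was Rnu1a1 (188 CPM), Rnu5g (159), Rnu11 (154), Rnu1b6 (134), Rnu2-10 (112), Rnu1b1 (112), Rnu1b2 (108), Rnu12 (57.4), Rnu6 (17.7), Rnu7 (13.1) and Rnu6-ps2 (5.07). In replicate 2 Rnu5g (878 CPM) and Rnu11 (860) stood above Rnu1a1 (697), then came Rnu1b6 (602), Rnu1b1 (417), Rnu2-10 (407), Rnu1b2 (406), Rnu12 (248), Rnu6 (33.4), Rnu7 (28.8) and Rnu6-ps2 (8.35). For the genes from Rnu1a1 to Rnu12 each level in replicate 2 exceeded each level in replicate 1. These genes share that shift, so the spread between the libraries does not decide whether neighbours in the order differ. Rnu12 was the lowest of them in both libraries (57.4 and 248), below Rnu1b2 (108 and 406). Differences between the genes were not tested. Rnu6, Rnu7 and Rnu6-ps2 lay below the other genes in both libraries. In ranks over all 45578 genes, Rnu11 stood at 743 in replicate 1 and 61 in replicate 2, and Rnu1a1 at 369 and 63.

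**Figure D2:**
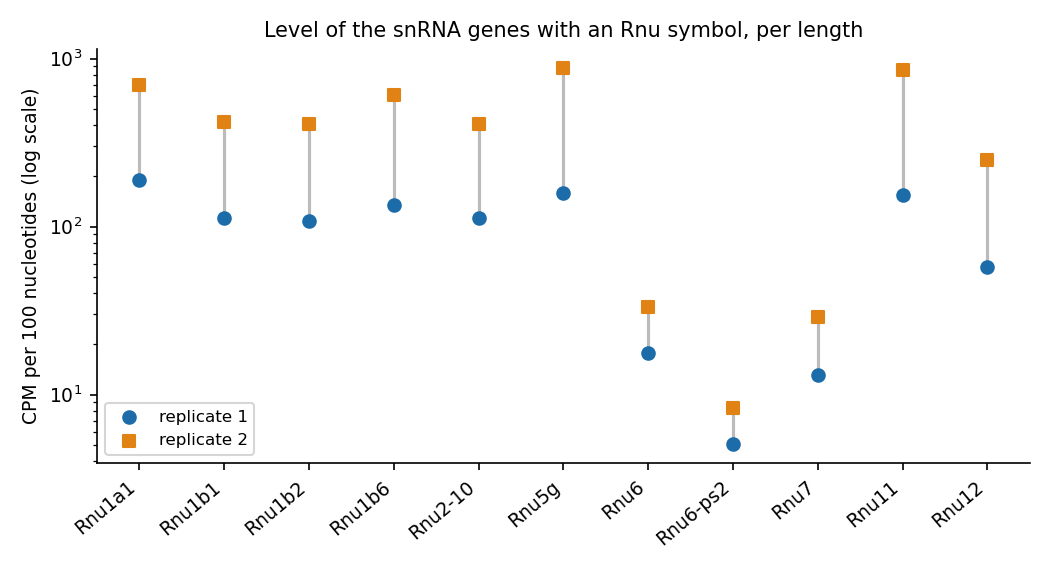
Points give the level of each Rnu gene in CPM per 100 nucleotides of transcript (log axis), circles for replicate 1 and squares for replicate 2, with a line joining the libraries. Rnu6, Rnu6-ps2 and Rnu7 lie at or below 33.4 CPM per 100 nucleotides in both libraries, and the other genes between 57.4 and 878.

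The test covered the 121 of 1382 copies whose counts averaged 10 or more. It was a 2-sided exact binomial test with Benjamini-Hochberg adjustment over all 5436 such genes, and of all genes 4.14% were called, 3.99% as higher in replicate 2. Of the 121 copies 76 were called (62.8%), all 76 higher in replicate 2. The median log2 ratio was 1.88 for the 121 copies and 0.0041 for all genes tested. Copies with fewer counts were not tested: 346 had 1 to 19 counts in sum.

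The calls separated by length. All 76 tested copies of 116 nucleotides or more were called, against none of the 45 shorter ones, of which 44 were U6-length and 1, Gm23924, had 108 nucleotides. The boundary was placed after the values were seen. The longer copies had log2 ratios from 1.28 to 3.42 with a median of 2.12. The shorter copies had ratios from -0.76 to 1.45 with a median of 0.52. The difference between the sets was not tested. Among the longer copies 74 of 76 had more raw counts in replicate 2 than in the deeper replicate 1, and none of the 45 shorter ones did. The count filter used both libraries, so a copy with few counts in replicate 1 could pass through replicate 2. Gm23376, with 6 and 19 counts, passed in this way, while Gm25106 (134 nucleotides), with 8 and 4, was left out. The numbers of longer copies called and higher in replicate 2 are therefore partly set by the filter.

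Depth also differed between these sets, since no tested copy below 116 nucleotides had more than 27 counts in sum. At 20 to 29 counts in sum, the 7 longer copies were all called (median log2 ratio 2.67). None of the 45 shorter ones was (median 0.52). That sum includes replicate 2, where the longer copies were high. In replicate 1 these 7 had 6 to 12 counts, against 12 to 22 for the tested U6-length copies. Depth was therefore not matched within a library, and its part in the calls was not tested. The exceptions in raw counts among the longer copies were Gm25581 (50 and 46 counts, log2 ratio 1.59) and Gm25682 (46 and 34 counts, log2 ratio 1.28), both of 164 nucleotides. With a preset biological coefficient of variation of 0.2 both lost their call, at adjusted exact test p = 0.091 and 0.505, and 68 of the 76 calls were left. At that setting 131 of all 5436 tested genes were called.

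**Figure D3:**
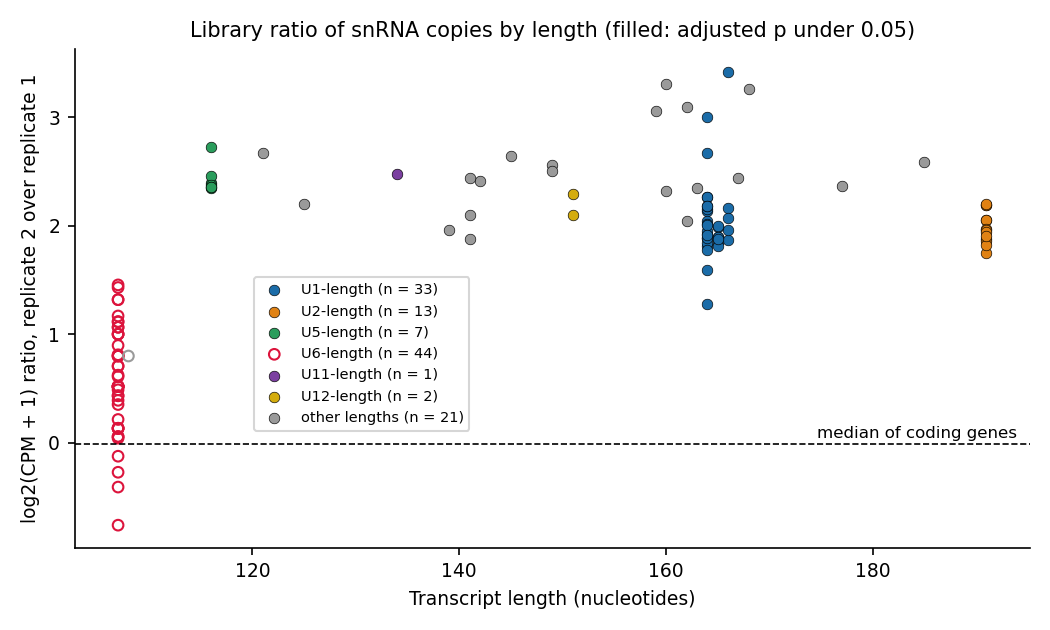
Each of the 121 tested copies is placed by transcript length in nucleotides (x) and log2(CPM + 1) ratio of replicate 2 over replicate 1 (y), coloured by length group; filled points were called by the exact binomial test, open ones were not, and the dashed line is the median of tested coding genes. The U6-length copies lie between -0.76 and 1.45, below nearly all longer copies, which lie between 1.28 and 3.42.

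By group, with equal pairs counted once, U1-length copies had 2342 and 2870 counts (log2 ratio 2.01, 95% interval 1.93 to 2.09, counting error only). U2-length copies had 881 and 1061 counts (log2 ratio 1.99, 1.86 to 2.12). U5-length copies stood higher, with 399 and 653 counts and 2.43 (2.25 to 2.61). U11-length copies had 86 and 147 counts and 2.49 (2.10 to 2.89), and U12-length copies 61 and 87 counts and 2.23 (1.74 to 2.73). The U6-length copies had 964 and 483 counts and 0.72 (0.56 to 0.88), the one group whose interval overlapped none of the intervals of U1, U2, U5, U11 and U12 length. The interval of the U5-length copies lay above those of U1 and U2 length. Differences between groups were not tested, and counts inside a group still share fragments.

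On the linear scale, U1-length copies stood at 6347 CPM in the first library against 25628 CPM in the second, a 4.04-fold difference (mean 15988 CPM ± 13634, SD, n = 2). U5-length copies stood at 1081 and 5831 CPM, or 5.39-fold, and U6-length copies at 2612 and 4313 CPM, or 1.65-fold. As a share of all snRNA counts, U1-length copies held 36.3% in replicate 1 and 42.1% in replicate 2, and U6-length copies 29.1% and 14.1%.

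**Figure D4:**
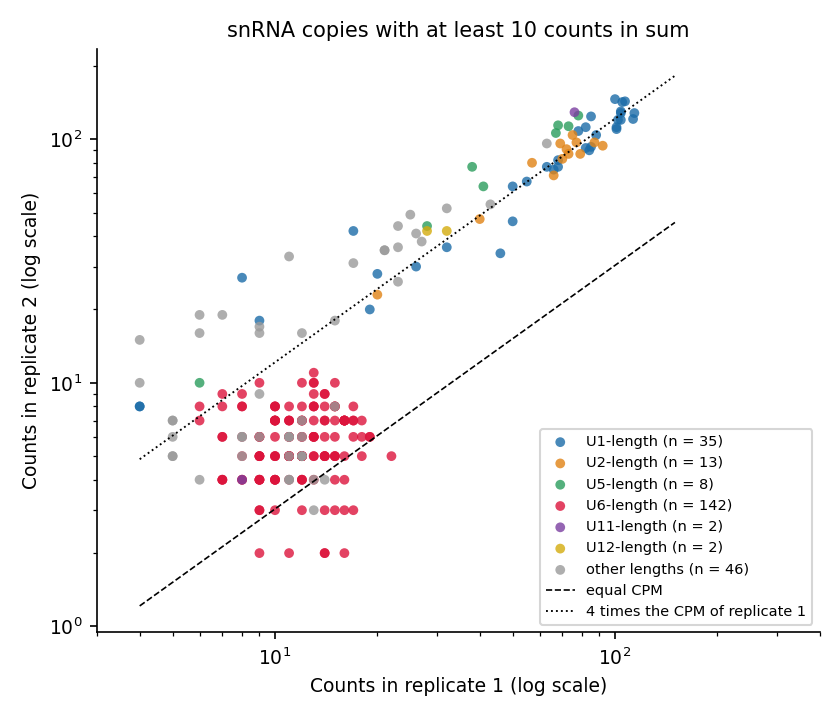
Each copy with at least 10 counts in sum is placed by its raw counts in replicate 1 (x) and replicate 2 (y), both on log axes and coloured by length group; the dashed line marks equal CPM and the dotted line 4 times the CPM of replicate 1. U1-length, U2-length and U5-length copies follow the dotted line up to 146 counts in replicate 2, and of the 142 U6-length copies, which have at most 22 counts in replicate 1 and 11 in replicate 2, 125 lie between the lines, 15 below and 2 above.

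Within the U1-length group all 33 tested copies were called. Their counts ran from 8 to 114 in replicate 1 (median 82) and from 18 to 146 in replicate 2 (median 92). The copy with the highest sum was Gm22317 (ENSMUSG00000096206, chr12:54738459-54738622), at 107 and 143 counts, 290 and 1277 CPM and a log2 ratio of 2.13. Copies of 164 nucleotides, the length of Rnu1a1, had a median log2 ratio of 2.00 over 21 tested copies. Those of 165 nucleotides, the length of Rnu1b1, had 1.89 over 7, and those of 166, the length of Rnu1b6, had 2.07 over 5. The highest ratio of any tested member belonged to Gm26505 (166 nucleotides), with 8 and 27 counts and a log2 ratio of 3.42 (2.30 to 4.82, adjusted exact binomial p = 1.70e-09).

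The 13 tested U2-length copies were narrower, with log2 ratios from 1.75 to 2.20. Gm23971 (chr11:101645740-101645930) led them with 92 and 94 counts. These 13 copies were also the longest members with at least 10 counts. The 7 tested U5-length copies had ratios from 2.34 to 2.73 and were led by Gm25313 (chr9:65196572-65196687) with 78 and 125 counts. Beside Rnu12, 1 other U12-length copy, Gm24525, passed the filter, at 28 and 42 counts and a log2 ratio of 2.29. The U2-length and U5-length ranges did not overlap each other.

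The 44 tested U6-length copies had 12 to 22 counts in replicate 1 (median 15) and 3 to 11 in replicate 2 (median 7). None was called, and 40 of the 44 had a ratio above 0. Gm26328 (chr14:52342777-52342883) held the highest sum, at 22 and 5 counts and a log2 ratio of -0.41 (-2.17 to 1.02). The lowest ratios belonged to Gm24486 (17 and 3 counts, log2 ratio -0.76), Gm26328, and Gm24458 (16 and 4 counts, log2 ratio -0.27), each with an adjusted exact binomial p of 1.

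Among copies of other lengths 20 of the 21 tested were called. Gm22739 (160 nucleotides, chr10:4484234-4484393, inside the span of Ccdc170) led them with 63 and 96 counts and a log2 ratio of 2.32. Gm23376 (160 nucleotides) reached 6 and 19 counts at a log2 ratio of 3.31 (adjusted exact binomial p = 1.95e-06), and Gm25704 (168 nucleotides) reached 11 and 33 counts at 3.26 (adjusted exact binomial p = 4.76e-11). All 19 tested copies between the U5 and U1 lengths, Rnu11 and Rnu12 among them, were called. The shortest member with at least 10 counts was Gm23116 (67 nucleotides), with 12 and 7 counts and a log2 ratio of 0.92 (-0.64 to 2.40).

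Copies whose length missed a named length by up to 5 nucleotides were also summarised, without a test. Within 5 nucleotides of the U1 lengths 20 of 61 copies had a count (32.8%, against 69.0% at the lengths themselves), and near the U6 length 55 of 392 did (14.0%, against 58.3%). The share was also lower near the U2, U5, U11 and U12 lengths than at them, while at the U7 length it was 4.55% and near it 8.51%. Their summed counts gave a log2 ratio of 2.62 near the U1 lengths and 0.60 near the U6 length.

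RefSeq placed 916 of the 1382 copies by symbol, on 21 chromosomes, with the same length for 792. A position inside the span of another RefSeq gene was found for 41.4% of the 916 and for 38.8% of the 103 tested ones. Exons and introns were not resolved. Of the placed U1-length copies, 14 had another within 100 kb and all 14 had at least 68 counts in sum (median 202.5). Of the 32 that stood alone, 20 had a count and 14 reached 20 counts (median 6.5, highest 232).

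These neighbours formed 7 clusters. U1-length copies lay on chr12:54696782-54738622 (5 copies, 101 to 113 counts in replicate 1 and 110 to 143 in replicate 2), on chr11:87422867-87426879 (Rnu1a1 and Gm22068, 104 to 114 and 120 to 128 counts), and on chr3:96328425-96488893 (7 copies placed by symbol, with Rnu1b1, Rnu1b2 and Rnu1b6, 32 to 88 and 36 to 112 counts). The U1 model printed above also lies in the chromosome 3 span. The snRNA copy Gm26232 (101 and 112 counts) was not placed by symbol and is not among the 7. Ratios of the placed copies overlapped between the 3 clusters, at 1.82 to 2.15, 1.88 to 1.92 and 1.82 to 2.17. U2-length clusters lay on chr11:101604850-101658424 and chr1:72226240-72255198 (4 copies each), and U5-length clusters on chr4:117189942-117210959 (3 copies) and chr9:65196572-65201841 (2 copies). The U6-length copies were scattered, with 363 placed ones standing alone and 18 near another.

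Other non-coding RNA classes were also higher in replicate 2. The share of gene counts in replicate 2 was 2.17 times that in replicate 1 for snoRNA, which guide chemical modification of other RNAs, and 5.53 times for scaRNA, which do so for snRNAs. It was 5.93 times for miRNA, 7.85 times for misc_RNA and 11.2 times for the mitochondrial rRNAs. Protein-coding genes had a share of 81.4% in replicate 1 and 73.1% in replicate 2. The part of this shift between classes in the snRNA ratios was not tested. Called genes made up 35 of 81 tested snoRNA, 6 of 8 scaRNA, 26 of 29 miRNA and 42 of 4392 coding genes.

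Short snoRNA and miRNA were called where the short snRNA copies, nearly all of U6 length, were not. Of the 45 tested snRNA copies below 116 nucleotides, 44 were U6-length. These 44 held 28 distinct count pairs, so they are not separate members where equal pairs are shared fragments. Below 116 nucleotides, 29 of 65 tested snoRNA were called, with a median log2 ratio of 1.69, and 26 of 29 miRNA, with a median of 2.76. At 20 to 29 counts in sum, 22 of 52 snoRNA and 17 of 19 miRNA below that length were called, against none of 45 snRNA copies. That sum too includes replicate 2, so depth was not matched within a library. Differences between classes were not tested.

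**Figure D5:**
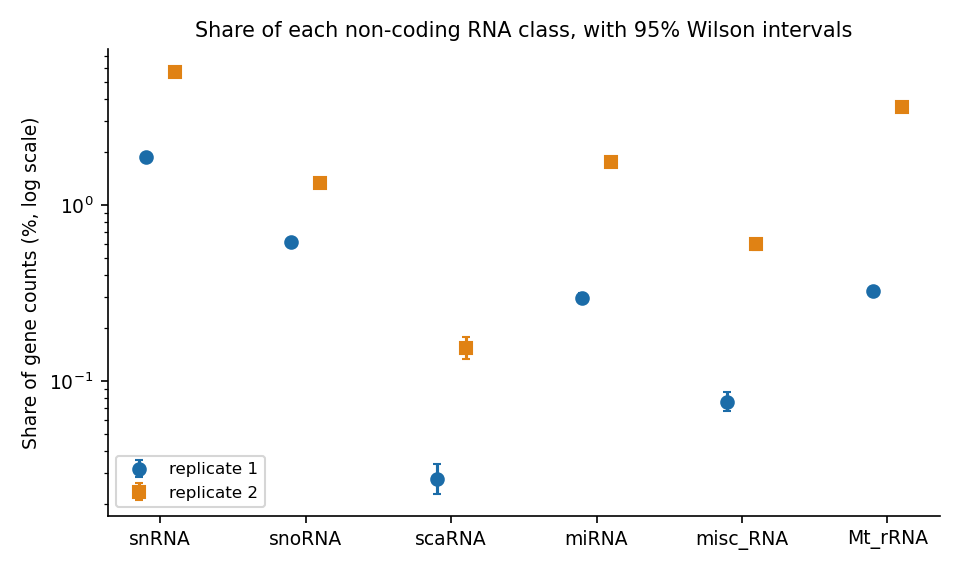
Points give the share of gene counts (percent, log axis) held by each non-coding RNA class shown, circles for replicate 1 and squares for replicate 2, with 95% Wilson intervals for counting error. Every class shown lies higher in replicate 2, snRNA at 1.88% and 5.68% and snoRNA closest together at 0.613% and 1.33%.

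Messenger RNAs for the proteins of the snRNA pathway gave no call in the main test. Of 104 genes in 9 lists, 100 were found and 44 passed the count filter. None was called by the exact binomial test on TMM sizes or with the preset coefficient of variation. Of all tested coding genes 42 of 4392 were called (0.956%), so no call among 44 is near that share. An unadjusted exact binomial p under 0.05 was seen for 3 of the 44 (Sf3b2, Prpf8 and Snrnp40). The share of all tested genes under that level was not counted, so these 3 are not read as a result about the pathway. The median log2 ratio of the 44 was -0.07, against -0.02 for tested coding genes, and 21 lay above 0. On library totals 1 of the 44 was called, against 199 of all 5436 tested genes. It was Prpf8, the large U5 protein at the core of the spliceosome, with 85 and 11 counts. Its log2 ratio was -1.43 on library totals (adjusted exact binomial p = 0.021) and -1.22 on TMM sizes (adjusted exact binomial p = 0.107).

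Among the Sm proteins, which form the ring on U1, U2, U4 and U5, 7 of 8 were tested (median -0.31), and Snrpn, the neuronal form of the B protein, led with 163 and 39 counts and a log2 ratio of -0.34. Of the Lsm genes 4 of 11 were tested, led by Lsm11, a part of the U7 ring, with 40 and 13 counts (log2 ratio 0.098). Of the SMN complex and its methylation partners 3 of 12 were tested, led by Strap with 54 and 12 counts (log2 ratio -0.45). Smn1, the gene present on 1 allele in these mice, had 5 and 2 counts, too few to compare.

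Among the U1 proteins Snrnp70, which binds the first stem-loop of U1, had 65 and 22 counts (log2 ratio 0.16). The U2 list was led by Sf3b2 (88 and 41 counts, log2 ratio 0.62), and the tri-snRNP list by Snrnp200, the helicase that unwinds U4 from U6 (70 and 27 counts, log2 ratio 0.34). Of the minor spliceosome proteins only Zrsr2 was tested (18 and 2 counts, log2 ratio -1.40, adjusted exact binomial p = 0.856). Ssb, the La protein that binds new U6 ends, led the transcription and processing list with 49 and 12 counts, and the import receptor Kpnb1 the transport list with 96 and 34. All 13 listed brain markers had counts and were tested. Of the 13 markers 1 was called, the neuronal tubulin gene Tubb3, as higher in replicate 2. It had 1061 and 405 counts, a log2 ratio of 0.33 and an adjusted exact binomial p of 0.00365. The other neuronal markers listed were not called (log2 ratios: Map2 0.015, Snap25 0.044, Dcx 0.13 and Stmn2 0.29). The median of the 13 markers was 0.13. The part of Tubb3 in the snRNA ratios was not tested. The liver marker Alb had no counts, and the muscle marker Acta1 had 70 and 22.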

How the data were processed

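Per the labels' protocols, nuclease-digested brain lysate was captured on RiboLace beads and fragments of 25 to 35 nucleotides were sequenced. The authors deposited whole-number counts per transcript and library, not normalised. The submitters' processing notes name Trimmomatic 0.36, Bowtie2 2.2.6, SAMtools and GRCm38.p4; the counting tool and the handling of reads with several matches are not given in the sources used here. The deposited table also gives transcript lengths and has 0 count columns of other samples. Columns were matched to replicates by number; their names also hold the word early, which no label explains.

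For each gene the transcript with the most counts over both libraries was kept; every snRNA gene has 1 transcript. Sizes were scaled by TMM in edgeR 4.0.16 (factors 1.07 and 0.931) using genes whose counts averaged 10 or more. A 2-sided exact binomial test, adjusted by Benjamini-Hochberg with a threshold of 0.05, was tested on simulated data. Quasi-likelihood tests need a second group. Wilson (shares) and Clopper-Pearson (ratios) 95% intervals cover counting error only, since PCR reads are not independent molecules. A log2 ratio has a pseudocount of 1 CPM and understates changes of low genes; its interval has none. Shared fragments make single copies uncertain.

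Library sizes from DESeq2 1.42.0, other filters and pair handling were alternatives. Named members were the Rnu genes, the copy with the highest sum in each length group, the 3 highest and 3 lowest ratios, and the longest and shortest copies with 10 counts; in pathway lists, the highest gene. Members and lists were chosen with earlier results of these data known, and length groups, since symbols were mostly predicted-gene names, after the table was seen. RefSeq coordinates are GRCm38.p6; patches leave chromosome coordinates as in GRCm38.p4.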

Additional observations from a re-analysis of the deposited data

How the results depend on the processing

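No paired analysis was possible because all libraries belong to 1 group. The 76 called copies stayed 76 with library totals, DESeq2 size factors and TMM over coding genes. Of all genes 199, 224 and 232 were called there, against 225 in the main test. The copies became 80 without a count filter (74 shared), where 270 of all genes were called. With a coefficient of variation of 0.2 they were 68, and 131 of all genes. With equal pairs counted once they were 75. When counts had to average 50 they were 43 of 43 tested, and 75 of all genes were called. With the highest copy of each length group alone, an alternative chosen after seeing the data like the comparison at like depth, 6 of 8 groups were called; the U7-length copy was not tested. No U6-length copy was called under these settings, apart from the one on an average of 50 counts, where none was tested. The fold of the snRNA share, 3.02, became 3.42 with transcripts summed, 3.27 with equal pairs counted once and 3.36 against coding genes. Library totals, which lower every ratio by 0.21, gave 1.81, 1.78, 2.22, 0.52 and 1.91 for U1-length, U2-length, U5-length, U6-length and other copies. The highest copy alone gave 2.13, 1.75 and 2.32 for U1-length, U2-length and other copies, and reversed the U6-length ratio to -0.41, with an interval that includes 0. Distinct pairs were 50.3% of counted copies and 86.0% at 20 counts or more. Copies at named lengths had a count in 58.8%, and in 36.7% when copies within 5 nucleotides of these lengths were pooled with them. The causes were not tested.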

Other observations

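U11 is known as a scarce RNA beside U1 in mammalian cells. As single genes, Rnu11 had 76 and 129 counts against 114 and 128 for Rnu1a1, or 154 and 860 CPM per 100 nucleotides against 188 and 697. Single genes do not measure all RNA of a family. Summed over copies, U11-length copies had 86 and 147 counts and U1-length copies 2346 and 2879. Such sums can count a shared fragment more than once. Beside Rnu11, 4 copies of its length had counts, at 12 or fewer in sum, and 40 U1-length copies had counts.

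Of the 100 tested genes of any class with the highest log2 ratios, 27 were snRNA copies, and of the highest 200, 74 were. Among all 5436 tested genes 121 were snRNA copies. The ranking uses the same ratios as above, and copies that share fragments are not independent. Of the 467 snRNA copies with a count, 67 had counts in replicate 2 alone and 55 in replicate 1 alone. Over all genes 20980 had a count, 19570 of them in replicate 1 and 15877 in replicate 2.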
